A study of Mus musculus with 10 samples.

Results

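The ADAM genes encode membrane proteins that carry a disintegrin domain and a metalloprotease domain. On the arrays, 34 mouse genes of 23462 named ones were members, chosen as every symbol made of Adam, digits and at most 1 letter that a probe's accession mapped to, so that Adamts genes and Adamdec1 were left out. They were read by 54 of 56605 probes. By what is generally known of where they are made, 21 members were classed as germ cell genes, 12 as broadly expressed genes and 1, Adam7, as an epididymal gene. The 12 include 2 leukocyte members and 3 neural members.

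The data are 1-colour Agilent arrays of single testes from 10 male C57BL/6N mice at 6 weeks of age, 1 array per animal. The 5 R offspring were born to dams that were given 50% of the control intake from 6.5 days post coitum, and they were nursed by unrelated control dams. The 5 C offspring were born to dams fed without restriction and stayed with their own mothers, so prenatal diet and fostering cannot be told apart. All offspring ate regular chow freely after weaning and carried no engineered allele.

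Most mammalian tissues use a few catalytically active ADAM proteins as sheddases, which cut the outer part off membrane proteins such as Notch receptors, growth factor precursors and cytokines. The testis is unusual in making many further members in developing sperm cells, several of which have lost the catalytic residues. Fertilin, a pair of ADAM1 and ADAM2, and the ADAM3 protein sit on or mature with the sperm surface, and mice without ADAM2 or ADAM3 have sperm that fail to pass into the oviduct and to bind the egg coat.

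The members' start regions showed how different the classes are at the sequence level, and 6 of them are printed here. RefSeq windows of 250 bases before a gene's start were at hand for 18 of the 34 members, in 20 windows because Adam19 had 3, with the build GRCm38.p6. The 11 germ cell windows held a median of 1 CpG (0 to 4) and were 38.0% G or C, while the 9 broadly expressed windows held a median of 17 (4 to 29) and were 62.0% G or C. Over all 32851 windows the medians were 6 CpG and 52.4%. The GC box letters GGGCGG, searched on both strands, lay in 4 of 9 broadly expressed windows (44.4%) and in 0 of 11 germ cell windows, beside 32.7% of all windows. The TATA letters TATAAA, also searched on both strands, lay in 3 germ cell windows (27.3%) and 0 broadly expressed ones, beside 12.4% of all. The matches in Adam6a and Adam6b lie in a run of bases that both windows share, so they are not separate observations. The cAMP response element TGACGTCA lay in no member's window and in 1.55% of all windows. These matches describe letters only.

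Adam10 and Adam15 are shown as the windows of 2 sheddase-type members that moved in opposite directions, with GC boxes on either strand in capitals, 5' to 3' on the gene's strand. Adam10 had 3 boxes, a pair of which overlap, and Adam15 had 1.
Adam10, chr9:70678732-70678981 (+): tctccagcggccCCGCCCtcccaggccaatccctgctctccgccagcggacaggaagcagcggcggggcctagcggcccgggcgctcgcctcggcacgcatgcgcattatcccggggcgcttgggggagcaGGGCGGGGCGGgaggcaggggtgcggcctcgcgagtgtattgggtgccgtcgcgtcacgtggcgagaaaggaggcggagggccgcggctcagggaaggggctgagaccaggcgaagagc
Adam15, chr3:89350029-89350278 (-): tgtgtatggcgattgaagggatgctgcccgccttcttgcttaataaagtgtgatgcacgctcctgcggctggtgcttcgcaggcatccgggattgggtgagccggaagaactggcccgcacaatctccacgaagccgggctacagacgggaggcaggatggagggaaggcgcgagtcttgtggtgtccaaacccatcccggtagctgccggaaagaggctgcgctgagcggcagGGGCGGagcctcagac

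Adam20, Adam25, Adam26b and Adam34l are shown because their windows shared 12 bases, TGTTGCTAGGCA, in capitals. The stretch was picked out after the sequences had been read. It ended 73 bases before the start in Adam20, 69 in Adam25 and 10 in both Adam26b and Adam34l, and 11 of all 32851 windows held it on either strand (0.0335%). The last 120 bases before each start are given.
Adam20, chr8:40793153-40793272 (+): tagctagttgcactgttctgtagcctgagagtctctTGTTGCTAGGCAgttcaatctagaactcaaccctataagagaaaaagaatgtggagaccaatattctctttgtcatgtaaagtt
Adam25, chr8:40752088-40752207 (+): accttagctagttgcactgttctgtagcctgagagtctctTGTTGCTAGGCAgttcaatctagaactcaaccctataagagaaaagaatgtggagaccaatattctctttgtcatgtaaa
Adam26b, chr8:43528138-43528257 (-): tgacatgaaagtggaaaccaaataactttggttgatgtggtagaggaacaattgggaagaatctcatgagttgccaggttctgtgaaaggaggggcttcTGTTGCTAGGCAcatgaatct
Adam34l, chr8:43703425-43703544 (-): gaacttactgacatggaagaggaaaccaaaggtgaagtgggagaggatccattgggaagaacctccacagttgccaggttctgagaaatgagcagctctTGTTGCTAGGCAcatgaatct

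These members are related copies, and their windows shared longer runs in pairs: 88 bases in a row between Adam20 and Adam25 and 21 between Adam26b and Adam34l. Adam6a and Adam6b shared 149 bases in a row of 250. Adam1a and Adam1b shared 7, and Adam34 and Adam34l shared 8. Probes for such copies may share signal, and the probes' sequences were not used here, so values of the copied germ cell members are uncertain for that reason.

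Values below are log2 signals: the log2 of the processed intensity on the scale where the 75th percentile of an array is 0. A log2 signal ranks arrays for 1 probe and does not compare 1 gene with another. A gene is read from its brightest tested probe. Testing needed a signal flagged as clear of background on 5 or more arrays, which 31 members had. A call is a Benjamini-Hochberg adjusted p under 0.05 in limma's test, taken over all 33851 tested probes. The 75th percentile of the intensity lay between 804 and 1019 over the arrays, and no spot was saturated. The arrays lay on 2 slides, with C replicates 1 and 2 and R replicates 1 to 4 on slide 1 and the other 4 arrays on slide 2. C replicate 2 stood apart from the other arrays over all tested probes, at 123 on the first principal component where the other C arrays lay between 13.9 and 29.5.

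Of the 31 tested members 10 differed between the groups. Adam4, Adam5, Adam15, Adam32, Adam33 and Adam39 rose in R, and Adam9, Adam10, Adam21 and Adam34l fell. Over all 16738 genes tested, 35.6% were called, 14.9% as higher and 20.6% as lower, so the share of members called was near the background and is no result about the family. The groups did not overlap in 9 of the 31 members, which are the called ones without Adam39, beside 29.1% of all genes. The study's fold cut, above 1.5 or under 0.66, was added to the call used here. Adam4, Adam9, Adam10 and Adam34l met both, beside 9.9% of all genes. The authors' own deposited table has q-values of up to 0.515, so it was not cut at this adjusted p. By its gene symbols, the only members in it are Adam15 and Adam20. Which animals were litter mates is not given in the sources used here, and each animal counts as 1 independent sample in the p-values. In whole testis, fewer cells of a type and less RNA per cell cannot be told apart.

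**Figure D1:**
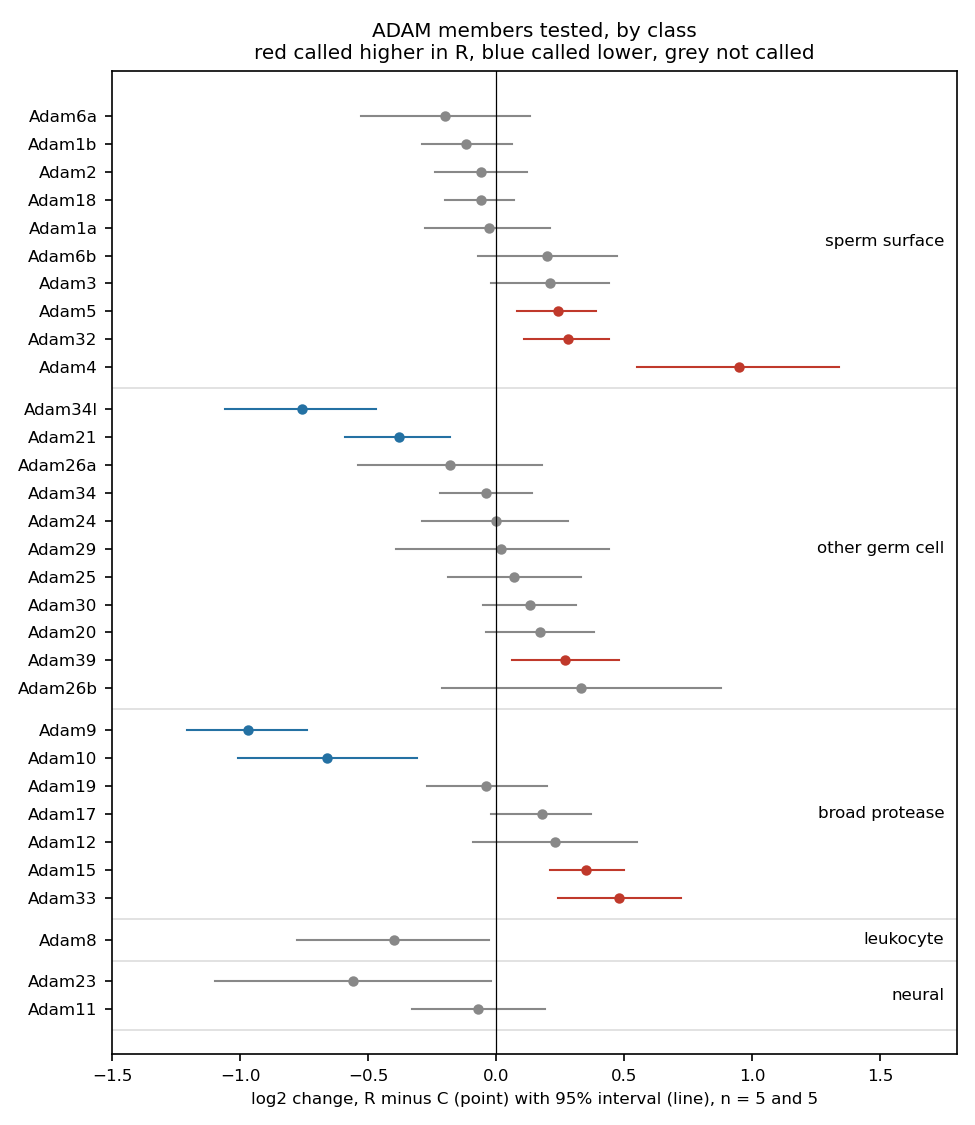
Log2 change of each tested member, R minus C (x axis, points), with its 95% interval (lines), grouped by class, 5 arrays per group. Red members rose and blue members fell, from -0.97 in Adam9 to 0.95 in Adam4, and the intervals of most sperm surface members include 0.

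The largest fall was that of Adam9, a broadly made protease that cuts cell surface proteins. Its log2 signal was 0.81, 0.99, 0.49, 0.43 and 0.61 in C replicates 1 to 5 and -0.30, -0.30, -0.24, -0.37 and -0.32 in R replicates 1 to 5. The R arrays lay within a narrow band under every C array. Adam9 fell by 0.97 ± 0.11 (SE, n = 5 and 5), a fold of 1.96 (95% interval 1.67 to 2.31, limma adjusted p = 1.0e-03). The change was -1.21 on slide 1 and -0.83 on slide 2.

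Adam10 is the protease that makes the first regulated cut of ligand-bound Notch and is an alpha-secretase of the amyloid precursor protein. Its log2 signal was 0.10, 0.51, -0.22, -0.27 and 0.37 in C and -0.52, -0.34, -0.71, -0.52 and -0.72 in R. The C arrays were spread widely, and the lowest of them lay just above the highest R array. Adam10 fell by 0.66 ± 0.16 (fold 1.58, 1.24 to 2.01, limma adjusted p = 0.011), with -0.83 on slide 1 and -0.68 on slide 2. Its dimmer probe gave -0.19 ± 0.13 (adjusted p = 0.246), so the size of the fall differed between its probes. Over all tested probes, 38.6% were called.

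Adam15, which carries an integrin-binding motif in its disintegrin domain, moved the other way. It read 2.12, 2.01, 2.10, 2.18 and 2.07 in C and 2.32, 2.49, 2.40, 2.50 and 2.55 in R, with every R array above every C array. The rise was 0.35 ± 0.07 (fold 1.28, 1.16 to 1.41, limma adjusted p = 0.00414), 0.36 on slide 1 and 0.43 on slide 2. All 3 of its probes were called higher, at 0.35, 0.39 and 0.46. The authors' deposited table sets R replicate 1 on the control side and C replicate 5 on the test side. There an Adam15 probe had a log2 ratio of 0.30 with a q-value of 0.515, the largest in that table.

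Adam33, a protease named mostly from airway smooth muscle and fibroblasts, read -3.34, -3.37, -3.14, -3.19 and -3.28 in C and -2.96, -2.85, -2.56, -2.54 and -3.00 in R. It was dim, but it was well above background on all 10 arrays. The rise was 0.48 ± 0.11 (fold 1.40, 1.18 to 1.65, limma adjusted p = 0.00864), with 0.63 on slide 1 and 0.20 on slide 2. Its other tested probe gave 0.13 ± 0.14 (adjusted p = 0.461).

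Adam17, the sheddase of tumour necrosis factor and of several ligands of the epidermal growth factor receptor, was not called on its brightest probe, at 0.18 (95% interval -0.02 to 0.37, limma adjusted p = 0.125). Its dimmer probe was called higher at 0.70 ± 0.15 (adjusted p = 0.00727), and the mean of both probes was called too (0.44, adjusted p = 0.00636), a setting that called 37.2% of all genes. So whether Adam17 is called depends on the probe. Adam12 and Adam19, the meltrins first described in muscle, gave 0.23 (-0.09 to 0.55) and -0.04 (-0.27 to 0.20). Adam12 was well above background on 4 C and 3 R arrays.

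The leukocyte member Adam8 gave -0.40 (-0.78 to -0.03, limma adjusted p = 0.0777), and Adam28, of lymphocytes, was above background on no array. Among the members that have no protease activity and serve as receptors or adhesion proteins of neurons, Adam23 gave -0.56 (-1.10 to -0.02, adjusted p = 0.0905) and was above background on 5 C and 3 R arrays. Its other tested probe gave -0.02 (limma adjusted p = 0.968), and the mean of its probes gave -0.29 (0.395). Adam11 gave -0.07 (-0.33 to 0.19), with 0.50 on its other probe. Adam22 was above background on 2 C and 1 R arrays and was not tested. Adam7, made in the epididymis, was above background on no array.

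**Figure D2:**
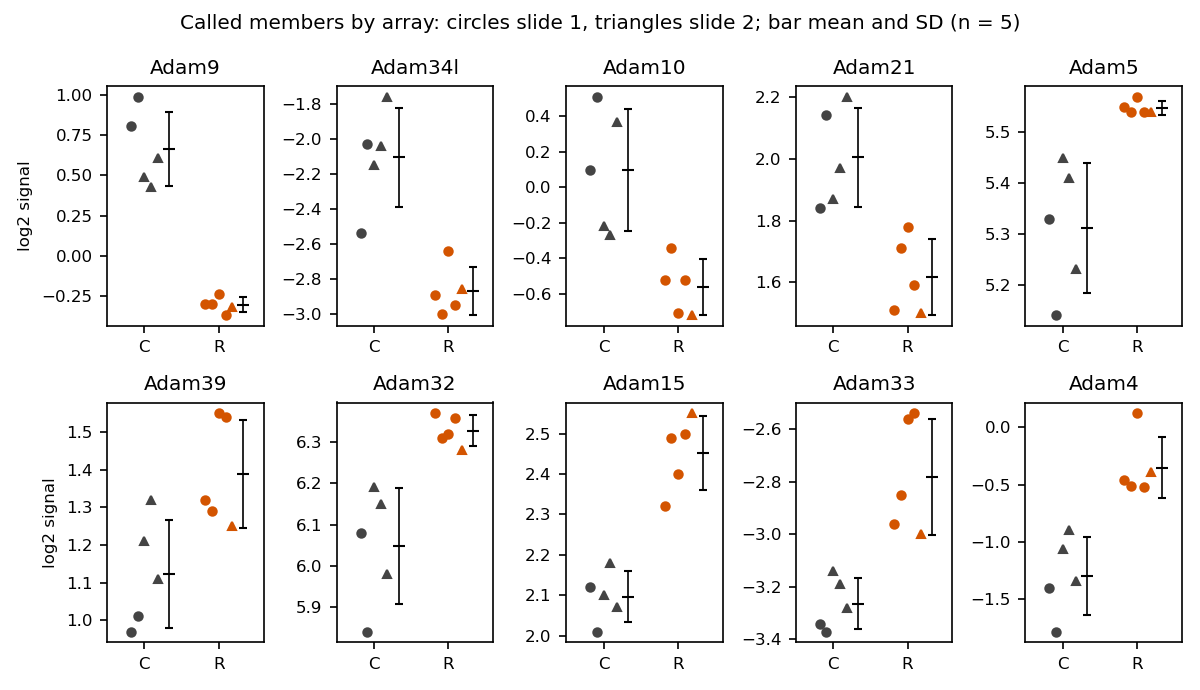
Log2 signal (y axis, own scale per panel) of the 10 called members in each array, C in grey and R in orange, circles on slide 1 and triangles on slide 2, with the mean and SD of 5 arrays. The groups are apart in every panel except that of Adam39, where C reaches 1.32 and R goes down to 1.25.

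On the germ cell side the rise of Adam4 was the largest. The ADAM4 protein is found on sperm together with ADAM2 and ADAM3. Adam4 read -1.40, -1.78, -1.06, -0.90 and -1.34 in C and -0.46, -0.51, 0.12, -0.52 and -0.39 in R. Every R array lay above every C array, and R replicate 3 lay well above the other R arrays. The rise was 0.95 ± 0.18 (fold 1.93, 1.47 to 2.54, limma adjusted p = 0.00447), with 1.25 on slide 1 and 0.71 on slide 2. Leaving out 1 array at a time moved it between 0.83 and 1.05, and the call was kept each time. These fits called between 24.5% (without R replicate 4) and 38.3% (without C replicate 4) of all genes.

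Adam5 and Adam32, sperm members that lie side by side on chromosome 8, rose by less. Adam32 read 6.08, 5.84, 6.19, 6.15 and 5.98 in C and 6.37, 6.31, 6.32, 6.36 and 6.28 in R. Its rise was 0.28 ± 0.07 (fold 1.21, 1.08 to 1.36, limma adjusted p = 0.0169), 0.38 on slide 1 and 0.18 on slide 2, and its other probes gave 0.65 (called) and 0.34 (not called). Adam5 read 5.33, 5.14, 5.45, 5.41 and 5.23 in C and 5.55, 5.54, 5.57, 5.54 and 5.54 in R. The R arrays of both genes were close together, and the C arrays were spread below them with C replicate 2 lowest. Adam5 rose by 0.24 ± 0.07 (fold 1.18, 1.06 to 1.31, limma adjusted p = 0.0254), 0.32 on slide 1 and 0.17 on slide 2. The Adam5 call was lost without R replicate 1, 3 or 4 or without C replicate 5, where the adjusted p went up to 0.0559, and it was lost over the mean of its probes (adjusted p = 0.0831).

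Adam39 was the weakest call. It read 0.97, 1.01, 1.21, 1.32 and 1.11 in C and 1.32, 1.29, 1.55, 1.54 and 1.25 in R, so the groups overlapped. The rise was 0.27 ± 0.09 (fold 1.20, 1.04 to 1.39, limma adjusted p = 0.0464), with 0.44 on slide 1 and 0.03 on slide 2. Leaving out any of 8 of the 10 arrays ended the call, with an adjusted p of up to 0.106. The exceptions were C replicate 4 and R replicate 5.

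Both germ cell members that fell, Adam21 and Adam34l, are further testis-made copies of the family. Adam34l read -2.54, -2.03, -2.15, -2.04 and -1.76 in C and -2.89, -3.00, -2.64, -2.95 and -2.86 in R, and the groups did not overlap. It fell by 0.76 ± 0.13 (fold 1.70, 1.38 to 2.08, limma adjusted p = 0.00342), with -0.58 on slide 1 and -0.87 on slide 2. Adam21 read 1.84, 2.14, 1.87, 1.97 and 2.20 in C and 1.51, 1.71, 1.78, 1.59 and 1.50 in R. It fell by 0.38 ± 0.09 (fold 1.30, 1.13 to 1.51, limma adjusted p = 0.0117), with -0.34 on slide 1 and -0.51 on slide 2. The lowest C array and the highest R array of Adam21, both on slide 1, lay close together.

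The fertilin genes were not called. Adam1a, an alpha subunit of fertilin that works in the endoplasmic reticulum, read 4.46 ± 0.20 in C and 4.43 ± 0.14 in R (SD, n = 5), a change of -0.03 (95% interval -0.28 to 0.21). Adam1b, the alpha subunit that reaches the sperm surface, gave -0.12 (-0.29 to 0.06). Adam2, the beta subunit, read 4.54 ± 0.15 in C and 4.49 ± 0.05 in R, a change of -0.06 (-0.24 to 0.12). These intervals leave room for small changes in either direction.

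Adam3, needed for sperm to enter the oviduct, read 6.04 ± 0.22 in C and 6.25 ± 0.08 in R. Its change of 0.21 (-0.02 to 0.44, limma adjusted p = 0.124) was not called. Of its dimmer probes, 1 was called higher at 0.58 (adjusted p = 0.0287) and the other was not, at 0.16. Adam18, of the same chromosome 8 run, gave -0.06 (-0.20 to 0.07), and its dimmer probe was called lower at -0.31 (adjusted p = 0.0422). Adam6a and Adam6b, a neighbouring pair on chromosome 12 whose joint loss impairs male fertility, gave -0.20 (-0.53 to 0.13) and 0.20 (-0.07 to 0.47), and neither was called.

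The remaining 8 germ cell members were not called either. Their changes were 0.33 (-0.21 to 0.88) in Adam26b, 0.17 (-0.04 to 0.38) in Adam20, 0.13 (-0.05 to 0.31) in Adam30 and 0.07 (-0.19 to 0.33) in Adam25. Adam29 gave 0.02 (-0.39 to 0.44), Adam34 gave -0.04 (-0.22 to 0.14) and Adam26a gave -0.18 (-0.54 to 0.18). Adam24, known from mice as a sperm protein that limits fertilisation by extra sperm, had an interval of -0.29 to 0.28. Adam20 had a log2 ratio of 0.24 in the authors' deposited table, whose sides differ from the labels, with its largest q-value of 0.515.

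**Figure D3:**
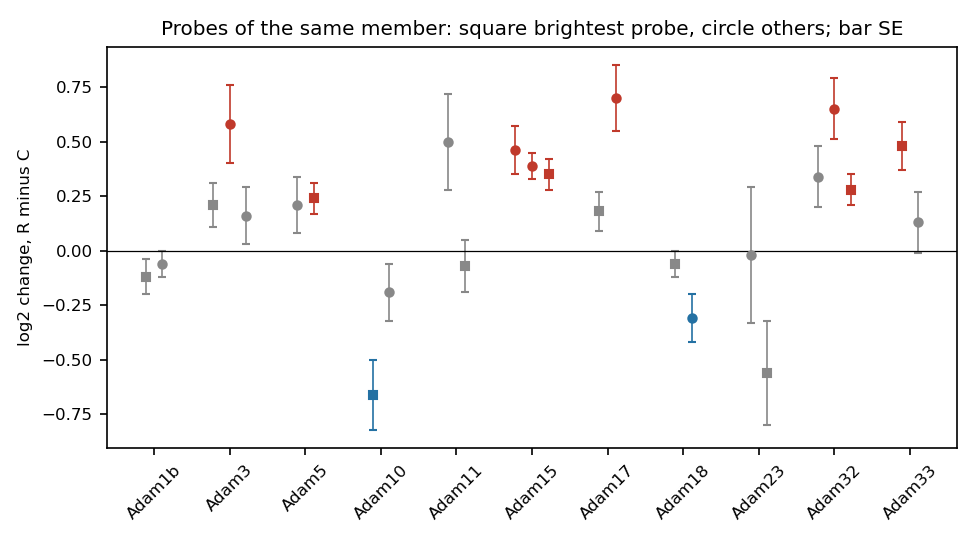
Log2 change, R minus C (y axis), of each tested probe of the 11 members with at least 2 tested probes, squares for the brightest probe, circles for the others and bars for the SE, red called higher and blue called lower. In 10 of the 11 the probes have the same sign, Adam11 being the exception, and no member has probes called in opposite directions.

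As classes, germ cell and broadly expressed members had medians close to that of all genes. The 21 germ cell members had a median change of 0.02 and a range of -0.76 to 0.95, with 4 called higher and 2 lower. The 10 tested broadly expressed members had a median of -0.05 and a range of -0.97 to 0.48, with 2 called higher and 2 lower. Within this class the 7 broad proteases had a median of 0.18 and the 2 tested neural members -0.31. The leukocyte member Adam8 was at -0.40. Over all genes tested the median was -0.03, with 14.9% called higher and 20.6% lower. The shares called in both classes lay near the 35.6% of all genes and are no result about the classes. The size of the change, taken without its sign, had a median of 0.18 in germ cell members, 0.38 in broadly expressed members and 0.24 in all genes. Germ cell members changed by a median of 0.26 on slide 1 and -0.04 on slide 2, and broadly expressed ones by -0.13 and -0.08. The difference of the class medians, germ cell minus broadly expressed, was 0.07 over all arrays and 0.39 on slide 1 alone. Its sign over all arrays depended on counting the leukocyte and neural members as broadly expressed, since the broad proteases alone had the higher median.

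Members that lie next to each other did not always move alike. In the gene order of the assembly GRCm38, 14 of the 34 members lay on chromosome 8, and 5 of these were called, a share close to the 35.6% of all genes and so no result about that chromosome. The run Adam18, Adam3, Adam5, Adam32 and Adam9 held 5 members with no other protein-coding gene between them. Adam5 and Adam32 rose there by 0.24 and 0.28, and Adam9, next to Adam32, fell by 0.97. A second run, Adam24, Adam25, Adam20 and Adam39, held 1 called member, Adam39 (0.27). Another, Adam26b, Adam26a, Adam34l and Adam34, also held 1, Adam34l (-0.76), beside values of 0.33, -0.18 and -0.04 in its neighbours.

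Single arrays were low or high in many germ cell members at once. C replicate 1 or C replicate 2 was the lowest C array in all 21 germ cell members, C replicate 2 in 12 and C replicate 1 in 9. Against the other C arrays, the germ cell median was -0.19 in C replicate 1 and -0.24 in C replicate 2, and those of C replicates 3, 4 and 5 were 0.17, 0.18 and 0.08. The low C arrays are the C arrays of slide 1. Among the R arrays, R replicate 3 was the highest in 16 of 21 germ cell members and R replicate 2 the lowest in 12. In the 10 broadly expressed members C replicate 2 ran the other way, with a median of 0.33 above the other C arrays and the highest value in 6. Without C replicate 2, 9 of the 10 called members kept their call, and Adam39 lost it, with 34.1% of all genes called.

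**Figure D4:**
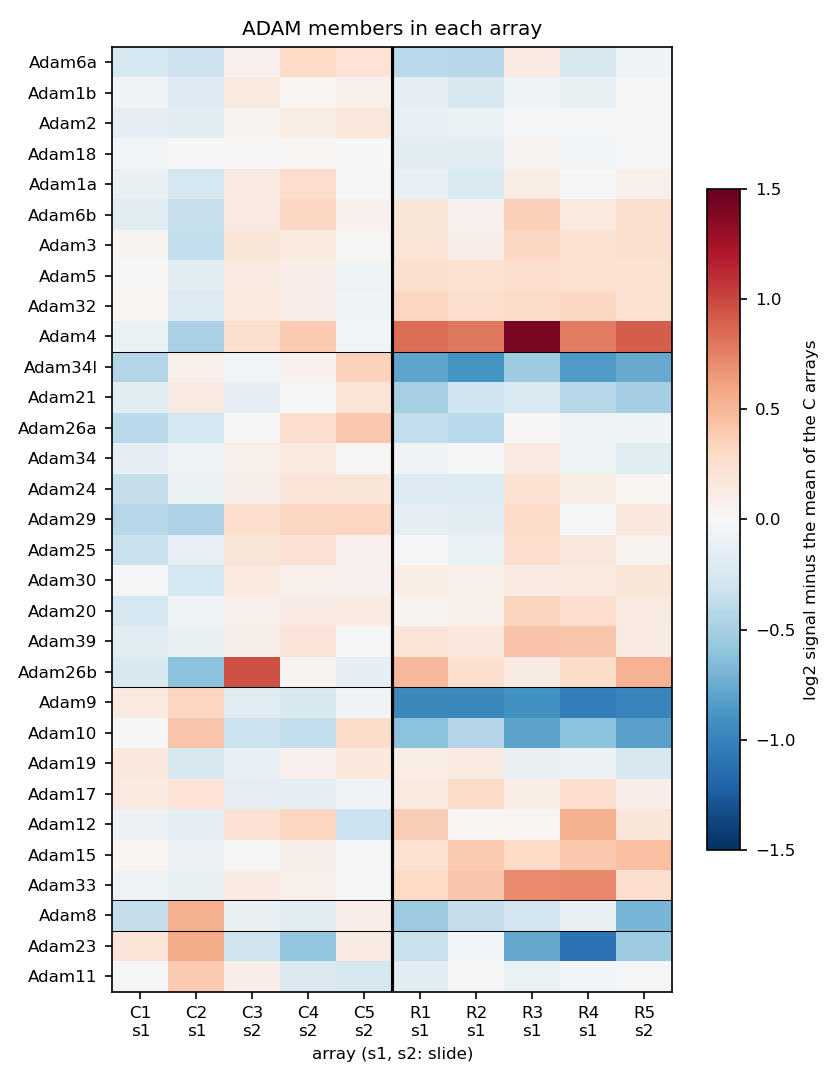
Log2 signal of each array minus the mean of the 5 C arrays, for the 31 tested members (rows, by class) and the 10 arrays (columns, s1 and s2 for the slide). In each of the 21 germ cell rows the lowest C array is C replicate 1 or 2, the rows of Adam9, Adam10 and Adam34l are low across R, and the row of Adam4 is high across R.

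The slide and the reference of the scaling changed which small differences were called. With the slide as a block, 15 members were called, all 10 of the above and also Adam3 (0.28, limma adjusted p = 0.0418), Adam6b (0.31, 0.034), Adam30 (0.19, 0.0451), Adam8 (-0.50, 0.0394) and Adam23 (-0.71, 0.0422), beside 51.5% of all genes. With each array's median as the reference, the median change of all genes moved from -0.03 to -0.23. On that scale Adam5 (0.03), Adam15 (0.15), Adam32 (0.07), Adam33 (0.27) and Adam39 (0.06) lost their calls, and Adam4 and the 4 members that fell kept theirs. Also on that scale Adam1b, Adam2, Adam6a, Adam8, Adam18 and Adam23 were called lower, and 42.7% of all genes were called.

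The deposited table formed its ratio with R replicate 1 on the control side and C replicate 5 on the test side, against the labels. Under that grouping limma called 0 members and 0 of 33851 probes, with 2567 probes at an unadjusted p under 0.05. Adam9 was then at -0.61 and Adam4 at 0.60 (adjusted p = 0.461 for both). Without these 2 arrays, Adam4, Adam9, Adam15, Adam33 and Adam34l were called, beside 15.9% of all genes.

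The proteins around the sperm ADAMs gave a mixed picture. A list of 16 genes that ADAM3 needs, or that have been tied to its maturation, had 15 tested members, of which 3 rose and 4 fell, with a median change of 0.01, beside 14.9% and 20.6% of all genes. With the array median as the reference all 3 rises lost their calls and Clgn was called. Ace, the angiotensin-converting enzyme, which has a testis form, rose by 0.23 (limma adjusted p = 0.0234), from between 2.64 and 2.88 in C to between 2.93 and 3.07 in R. Cmtm2b, a membrane protein of the sperm pathway, rose by 0.20 (adjusted p = 0.0181), but over the mean of its probes it gave 0.05 (adjusted p = 0.522). Tpst2, which puts sulphate on tyrosines, fell by 0.47 (adjusted p = 0.0125), and Ly6k, a lipid-anchored partner of TEX101, fell by 0.36 (adjusted p = 0.0141). Pmis2 rose, and Calr3 and Tex101 fell. Leaving out 1 array ended the Pmis2 call for 8 of the 10 arrays, all but C replicates 3 and 4, with an adjusted p of up to 0.0908. The Tex101 call was lost without R replicate 1, 2, 3 or 5 or C replicate 1 or 5 (up to 0.0887), and the Calr3 call without R replicate 1, 2 or 4 or C replicate 4 or 5 (up to 0.0583). The Ace call was lost without R replicate 3 or 5 (up to 0.0533). The other 8, among them the chaperone genes Clgn and Pdilt, were not called.

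Of 18 genes that steer or block sheddases, 16 were tested, 0 rose and 3 fell, with a median change of -0.16. The share that fell was near the 20.6% of all genes called lower and is no result about this list. Reck, a membrane-anchored inhibitor of metalloproteases including ADAM10, read -0.00 to 0.07 in C and -0.84 to -0.66 in R and fell by 0.82 ± 0.06 (limma adjusted p = 3.6e-04). Tspan14 and Tspan17 belong to the tetraspanins that carry ADAM10 out of the endoplasmic reticulum. Tspan14 fell by 0.68 (adjusted p = 0.00745) and Tspan17 by 0.56 (adjusted p = 0.00453). The other 3 tested tetraspanins of this kind were not called: Tspan5 gave -0.18 (adjusted p = 0.105), Tspan15 -0.06 (0.863) and Tspan33 0.02 (0.872). Timp1, a secreted inhibitor, gave -0.33 and missed the threshold (adjusted p = 0.0503). The iRhom genes Rhbdf1 and Rhbdf2, which guide ADAM17, were not called.

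Of 22 genes whose proteins sheddases cut, 14 were tested, of which 3 rose and 5 fell, with a median change of 0.09, beside 14.9% and 20.6% of all genes. Of the rises, Nrg1 and Prnp lost their calls with the array median as the reference, and Prnp, at 0.39 on its brightest probe, gave -0.21 over the mean of its probes (adjusted p = 0.0492). Notch1 read -0.86, -2.44, -0.94, -1.08 and -1.02 in C and 0.20, 0.32, 0.11, 0.03 and -0.31 in R. It rose by 1.34 ± 0.28 (limma adjusted p = 0.00674), 1.81 on slide 1 with the low C replicate 2 and 0.71 on slide 2. Notch2 fell by 0.53 (adjusted p = 0.00673). Kitl, the ligand through which Sertoli cells support spermatogonia, fell by 0.97 (adjusted p = 0.00219) on its brightest probe, but over the mean of its probes it gave -0.23 (adjusted p = 0.295). Dlk1, a membrane protein related to Notch ligands, fell by 1.06 (adjusted p = 0.00324). The other falls, of App (-0.47) and Tnfrsf1a (-0.59), lost their calls over the mean of their probes. There App gave -0.27 (limma adjusted p = 0.0622) and Tnfrsf1a -0.37 (0.199). The Tnfrsf1a call was also lost without R replicate 1, 3, 4 or 5 or C replicate 1. Leaving out 1 array ended the Nrg1 call for 7 of the arrays. Of the 4 Lgi genes, whose proteins bind ADAM22 and its relatives, Lgi2 (0.10) and Lgi4 (-0.25) were tested and not called.

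**Figure D5:**
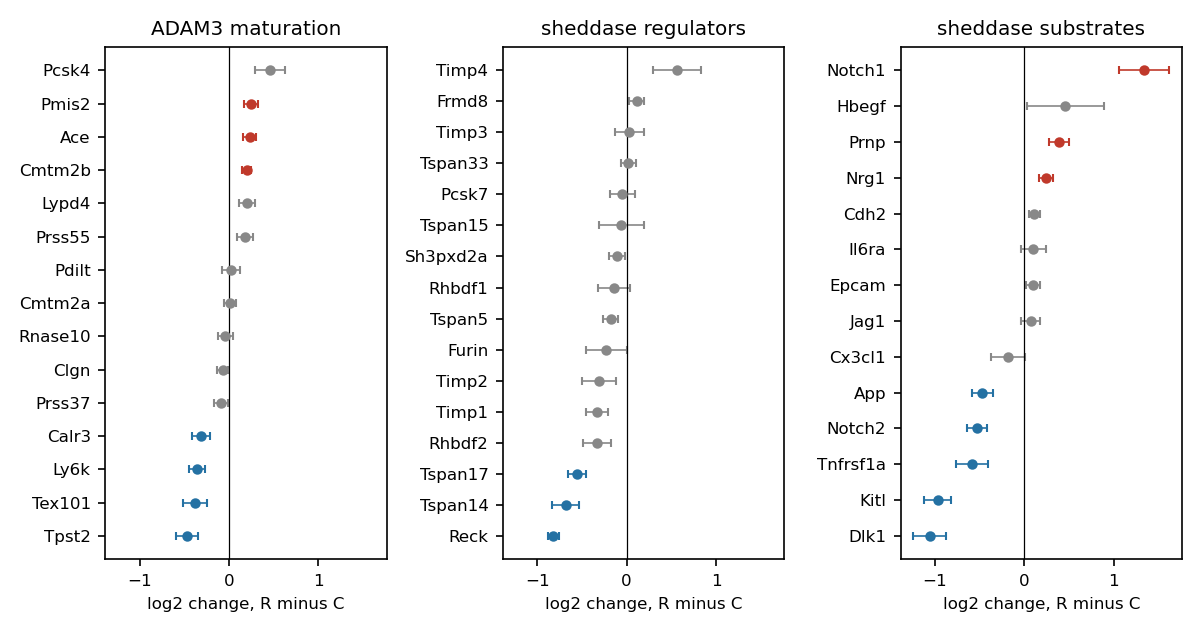
Log2 change, R minus C (x axis, points), with its SE (bars) for the tested genes of 3 lists around the family, red called higher and blue called lower. Reck, Tspan14 and Tspan17 stand at the low end of the regulators, and Notch1 at 1.34 and Dlk1 at -1.06 are the ends of the substrates.

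Marker genes of testis cell types were measured beside these values, and their part in the members' changes was not tested. Most defining markers of the labelled tissue were present. All spermatogonia, spermatocyte and spermatid markers and 15 of 16 Sertoli cell markers were tested, the exception being Amh, which was above background on no array. Of the Leydig cell markers 9 were tested, of which Lhcgr was above background on 5 C and 2 R arrays, and 6 of 7 epididymal markers were above background on no array. Over all genes tested, 14.9% were called higher and 20.6% lower. Of 15 Sertoli cell markers 12 fell and 1 rose, with a median of -0.49. Their summed level, in units of the array's 75th percentile, was 309 to 448 in C and 265 to 320 in R. Of 10 macrophage and leukocyte markers 6 fell and 1 rose, with a median of -0.55. Among the falls, Lyz2 was above background on 5 C and 2 R arrays and Ptprc on 4 C and 1 R. These falls were tested mainly through the C arrays, and their sizes are uncertain. The summed level of the 10 markers was higher in R, 11.6 to 19.0 in C and 23.8 to 32.5 in R. The brightest marker, Itgam, was the one that rose. Without Itgam the sum was 3.31 to 5.20 in C and 2.30 to 3.47 in R. Of 9 Leydig cell markers 3 fell, with a median of -0.28, and of 7 endothelial markers 4 rose, with a median of 0.45. In each of these lists some of the calls were lost when 1 array was left out.

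Spermatid markers had medians near that of all genes. Beside the counts given here, 14.9% of all genes were called higher and 20.6% lower. Of 8 round spermatid markers 1 fell (median -0.04, summed level 67.9 to 92.5 in C and 71.1 to 85.4 in R), and of 8 elongating spermatid markers 1 fell (median 0.06, 1260 to 1490 in C and 1310 to 1500 in R). Of 9 spermatocyte markers 4 fell (median -0.16, summed level 256 to 307 in C and 258 to 275 in R). Of 9 spermatogonia markers 4 fell and 2 rose (median -0.21, 34.3 to 50.2 in C and 31.7 to 33.0 in R). Without the brightest marker, the spermatocyte sum was 85.1 to 106 in C and 77.9 to 80.2 in R. The spermatogonia sum without its brightest marker was 18.5 to 21.1 in C and 17.6 to 18.9 in R. Some of the spermatogonia calls and that of the elongating spermatid marker were lost when 1 array was left out. The lowest summed round spermatid level, 67.9, was that of C replicate 1, which was also among the 2 C arrays low in the germ cell members. The other of these, C replicate 2, had 77.9, under the 84.4 to 92.5 of C replicates 3 to 5. It had the highest elongating spermatid level of the C arrays, 1490, and the highest spermatocyte level, 307. Any tie between these levels and the members was not tested. Adipocyte markers were highest in R replicate 2 (summed level 13.7) and C replicate 2 (9.37), with 2.46 to 4.48 on the other arrays.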

How the data were processed

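The deposited scanner files hold spot intensity values, and the submitters' processing notes name Agilent Feature Extraction 12.0.3.1. Per the file headers, these intensity values had background subtraction and detrending within each array, with mm9 named for the annotation. A deposited table gives the authors' own comparison of 2266 probes as scaled intensity, log2 ratios, p-values and q-values, and 10 of its columns of per-sample values were not used. The sides of its ratio were found by matching its mean columns to the arrays.

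Control spots and outlier spots were dropped, and the log2 values of a probe's spots were averaged. Each array's 75th percentile over non-control spots was subtracted. Probe accessions were named through RefSeq's GRCm38 gene table, which held 33767 of 56605 probes. The comparison of R with C used lmFit and eBayes of limma 3.58.1 (R 4.3.3), 2-sided, with Benjamini-Hochberg adjustment. Groups were taken from the labels, and replicates were numbered in order within a group.

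The members, their classes and the gene lists were chosen with earlier results of these data known. The rule named every member, and of each related or marker list up to 4 tested genes of smallest p. Pmis2, Calr3, Tex101, Clgn, Pdilt, Rhbdf1, Rhbdf2, Tspan5, Tspan15, Tspan33, Nrg1, Prnp, App, Tnfrsf1a, Amh, Lhcgr and Ptprc were named outside it, after values were seen.

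On simulated data of 33851 probes with 200 changed, 77% of 2-fold and 95% of 4-fold changes were recovered, with 16 false calls. The simulated probes and arrays were independent, with no slide effect and no array set apart. These rates therefore need not hold for the real arrays. Alternatives covered background correction, normalisation, filter, probe choice, slide, array weights, grouping and left-out arrays. For normexp, the deposited median spot intensity was used in place of the planned mean. The number of arrays limits the precision.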

Additional observations from a re-analysis of the deposited data

Results flagged for a closer look

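In 3 of the 62 groups of 5 arrays examined, 1 array lay far from the others by Dixon's criterion (gap over range above 0.71), which chance alone gives in about 1 of 20 groups. Adam3 had a log2 signal of 5.66 in C replicate 2, under 6.05 to 6.21 in the other C arrays. Adam4 had 0.12 in R replicate 3, above -0.52 to -0.39 in the other R arrays. Adam18 had 4.28 in C replicate 1, under 4.33 to 4.35 in the other C arrays.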

How the results depend on the processing

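All 10 called members kept their direction in every alternative tried, and 50 sign changes fell on members called in neither setting. Slide 2 alone held 3 C arrays and 1 R array, too few for a count of calls. Under the grouping of the deposited table the count of called members, 10 as reported, was 0, as it was over all genes. Without the 2 arrays that table groups otherwise it was 5, beside 15.9% of all genes. The related lists, with 15, 16, 14 and 2 tested genes, together held 18 called genes. That share was near the 35.6% of all genes and is no result about the lists. Their count was 0 under that grouping, as over all genes, and 8 without the 2 arrays. Leaving out 1 array at a time gave 8 to 11 members and 13 to 19 list genes, beside 24.5% to 38.3% of all genes. Without a filter, Adam5, Adam32 and Adam39 lost their calls (limma adjusted p = 0.0729, 0.0503 and 0.105), with 16.1% of all genes called. Adam33 lost its call under quantile normalisation (limma adjusted p = 0.0659), with 38.8% of all genes called. Adam21 lost its call on slide 1 alone (0.076), with 39.6% called. Adam39 lost its call with array weights (0.0788), with 40.3% called. It also did so with the percentile taken over probe means (0.064), with 36% called, an alternative chosen after seeing the data. Germ cell minus broadly expressed medians, 0.07 as reported, were 0.39 on slide 1 alone and -0.02 to 0.17 with 1 array left out. They were 0.26 with the slide as a block and 0.23 under quantile normalisation. Over the mean of probes they were -0.07, and with array weights -0.06, so the sign depends on the processing. No paired analysis was possible because the labels carry no replicate numbers. Probes near background, such as those of Adam12 and Adam23, limit what can be said of the dim members.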
